A study of Mus musculus with 9 samples.

Results

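Killer lectin-like receptors are C-type lectin-like membrane proteins that were first described on natural killer (NK) cells. The transcripts of 9 of them, Klrk1, Klrd1, Klrc1, Klrb1b, Klrb1c, Klrb1f, Klra17, Klri2 and Klrg1, were compared between 3 subsets of splenic dendritic cells (DC). They were chosen by gene name from the 39179 genes of the count table, and all 9 had enough counts to be tested, as did 13819 genes in total. Another 21 genes of the table carry a Klr name. The DC were CD8+ conventional DC (cDC1), CD8- conventional DC (cDC2) and plasmacytoid DC (pDC) from the spleens of steady-state, unstimulated C57BL/6J mice whose age the labels do not give, and no transgene or treatment was involved. Each subset had 3 biological replicates, each from a pool of 15 to 17 mice, which gave 9 libraries, and libraries that share a replicate number also share a date code in their labels. What the date code dates is not stated. Differences between libraries of a subset are therefore differences between pools and dates, not between single mice.

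Most of these receptors are encoded in one cluster, the NK gene complex. They either activate a cell, by pairing with an adaptor such as DAP10 or DAP12 that recruits kinases, or inhibit it, through a tail that recruits the phosphatases SHP-1 and SHP-2. Their ligands are MHC class I molecules, MHC class I-like stress molecules, cadherins and other lectin-like proteins. NK cells carry nearly all of them, and some T cells and myeloid cells carry single members, of which Ly49Q on pDC is the best known. Since the RNA came from bulk sorts, a few NK cells that hold much of a transcript and a low level in every DC give the same count, and fewer cells of a type cannot be told apart from less RNA per cell.

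In GRCm38 with the GENCODE M21 annotation, all 9 genes lie on chromosome 6. From 128778485 to 129876672 there are 8 of them, and Klrg1 lies apart, from 122270596 to 122282882. Klrb1f and Klrd1 are on the plus strand and the others on the minus strand. Reads of 75 bases could not always be assigned to a single gene. Of all 75-base windows in the exons, 25% in Klrc1 also occur in Klrc2 or Klrc3, 24.5% in Klrb1b and 13.2% in Klrb1c occur in Gm44511, Klrb1a or in each other, 0.886% in Klri2 occur elsewhere, and none in the other 5. The count table has no entry for Gm44511, and counted over genes that the table holds the share was 1.48% in Klrb1b and 1.82% in Klrb1c, and still 25% in Klrc1. The coding sequences of Klrb1b and Klrb1c were identical at 85.9% of aligned bases, and those of Klri2 and its neighbour Klri1 at 78.1%. By this measure the counts of Klrc1 are the least certain of the 9.

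The promoter is shown for 1 receptor gene that was higher in each subset than in the others, Klra17 (pDC), Klrk1 (cDC1) and Klrb1f (cDC2), the last because the promoter table used here has no entry for Klri2, as RefSeq (GRCm38.p6) gives it from 250 bases before to 50 bases after the start of transcription, 5′ to 3′ on the strand of the gene. Klra17 is read at chr6:129876623-129876922 on the minus strand, Klrk1 at chr6:129623815-129624114 on the minus strand, and Klrb1f at chr6:129045651-129045950 on the plus strand. Capitals mark, on either strand, GAGGAA (the core bound by PU.1 and related ETS factors), TGTGGT (the core bound by RUNX factors) and CANNTG (the E-box), which did not overlap each other.
Klra17: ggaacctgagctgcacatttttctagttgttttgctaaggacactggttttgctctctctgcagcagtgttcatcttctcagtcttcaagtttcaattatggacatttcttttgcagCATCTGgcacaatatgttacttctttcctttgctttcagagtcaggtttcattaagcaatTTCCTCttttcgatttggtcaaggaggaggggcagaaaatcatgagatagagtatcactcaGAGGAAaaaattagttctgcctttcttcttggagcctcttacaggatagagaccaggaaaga
Klrk1: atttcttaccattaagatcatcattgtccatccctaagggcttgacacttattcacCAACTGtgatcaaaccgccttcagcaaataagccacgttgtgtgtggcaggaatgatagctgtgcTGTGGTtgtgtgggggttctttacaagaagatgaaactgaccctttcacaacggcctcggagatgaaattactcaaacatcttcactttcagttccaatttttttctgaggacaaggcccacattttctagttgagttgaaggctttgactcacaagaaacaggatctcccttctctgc
Klrb1f: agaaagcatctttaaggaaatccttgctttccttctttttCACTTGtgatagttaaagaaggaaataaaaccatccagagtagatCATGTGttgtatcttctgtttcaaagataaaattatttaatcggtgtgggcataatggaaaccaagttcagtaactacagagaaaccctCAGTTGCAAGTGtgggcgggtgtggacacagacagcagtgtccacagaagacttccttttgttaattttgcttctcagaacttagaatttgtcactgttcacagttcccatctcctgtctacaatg
The Klra17 promoter held GAGGAA and an E-box, that of Klrk1 held TGTGGT and an E-box, and that of Klrb1f held E-boxes alone. RefSeq entries were found for 6 of the 9 genes. GAGGAA was in 3 of these 6 and in 28.3% of all 32851 promoters, TGTGGT in 3 and 16.8%, and CANNTG in 5 and 72.3%. These are matches of letters and not measured binding.

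Libraries held 15806597 to 32453789 reads on genes, so 3 counts correspond to 0.0908 to 0.203 CPM, which covers counting error only, and replicate 3 was the shallowest in each subset. Levels are given as TMM-normalized CPM (counts relative to the scaled library total), in the order of replicates 1, 2 and 3. The sorted subsets followed their labels. Cd8a was lowest in cDC2, Itgam (CD11b) was highest in cDC2, and Bst2 (CD317) was highest in pDC, each with no overlap with the other subsets. NK cell transcripts were present at low levels and unevenly. Ncr1, which encodes the NK cell receptor NKp46, stood at 1.35, 1.13 and 1.49 CPM in cDC1, at 2.33, 6.51 and 10.4 in cDC2 and at 1.67, 0.963 and 1.89 in pDC. Gzma, the granule protease granzyme A, stood at 6.30, 4.09 and 15.0 CPM in cDC1, at 10.04, 10.6 and 40.7 in cDC2 and at 9.53, 4.87 and 25.3 in pDC. Ncr1 was thus highest in cDC2 replicates 2 and 3, and Gzma was highest in replicate 3 of every subset. The 5 defining NK genes (with Prf1, Eomes and Itga2) summed to 7.05 to 21.0 CPM in cDC1, to 16.5 to 62.4 in cDC2 and to 8.21 to 37.5 in pDC, and of them only Itga2, the gene of the CD49b stained in the sort, was at 0 in a library (replicate 3 of cDC1 and of pDC). Of a wider list of 15 NK genes, 7 were called higher in cDC2 against cDC1 (12.7% of all genes tested were) and 9 lower in pDC against cDC2 (23.3%). Among those called, Cd160, Fasl, Txk and, in pDC against cDC2, Gzmm had enough counts for testing in every library of cDC2 and of no other subset. Their calls follow in part from that filter on low counts. Of the 5 defining genes only Ncr1 was called in these 2 comparisons. The sum of the wider list was at most 199.8 CPM in cDC1, while cDC2 held 452 to 538 and pDC 51.7 to 107, most of it from Ccl5 and, in cDC2 and pDC, Sh2d1b1.

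The 3 subsets differed in which killer lectin-like receptors were highest there, with Klrk1 highest in cDC1, Klra17 in pDC and Klri2, Klrb1f and Klrb1b in cDC2. Of CPM not corrected for length, Klrk1 took 66.0% of the summed CPM of the 9 genes in cDC1, Klra17 took 69.7% in pDC, and in cDC2 it was shared between Klrd1 (39.4%), Klri2 (21.7%) and Klrk1 (20.8%). The order of genes within cDC1 depended on the length used. Per kilobase of all exons Klrd1 stood above Klrk1 (27.1 ± 12.3 and 17.2 ± 1.07 CPM, SD, n = 3), and per kilobase of the transcript with the longest coding sequence it stood below (37.8 and 97.2 CPM). In sum the 9 genes had 165 to 222 CPM in cDC1, while cDC2 had 305 to 429 and pDC 590 to 642, with no overlap. Genes were called different at an adjusted p under 0.05 in edgeR's quasi-likelihood test over all genes tested. Between pDC and cDC1, 5 of the 9 were called, where 48.6% of all genes tested were. Of them 3 were higher in pDC (24.3% of all genes) and 2 lower (24.4%), and the libraries of the 2 subsets did not overlap for 5 (58.6% of all genes). Between pDC and cDC2, 5 were called, beside 45.8% of all genes. Here 1 was higher in pDC (22.5%) and 4 lower (23.3%), and 6 did not overlap (56.1%). With the replicate number as a block 8 were called, of which 7 were lower in pDC, and the added calls were Klrb1c, Klrc1 and Klrg1. The shares above are from the fit without the block, and none is given for the fit with it. Changes of a count with the block are therefore not read as particular to these receptors. Between cDC2 and cDC1, 6 were called, beside 24.4% of all genes, with 5 higher in cDC2 (12.7%) and 1 lower (11.7%), and 7 did not overlap (44.5%). Klrc1 and Klrg1 passed the filter on low counts only through cDC2, where they were high, so their differences from cDC2 follow in part from the filter. Without them 5 of 7 were called between cDC2 and cDC1 (4 higher, 1 lower) and 5 did not overlap, and between pDC and cDC2 5 of 7 were called and 5 did not overlap, or 6 called with the replicate block. The median log2 fold change of the 9 was 0.52, -2.19 and 2.55 in these 3 comparisons, beside 0.02, -0.01 and 0.03 for all genes tested. These medians include Klrc1 and Klrg1, and the 9 genes were chosen with earlier results of these data known, so they are a description and support nothing. The 3 comparisons share their libraries in pairs, so they are not independent of each other.

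**Figure D1:**
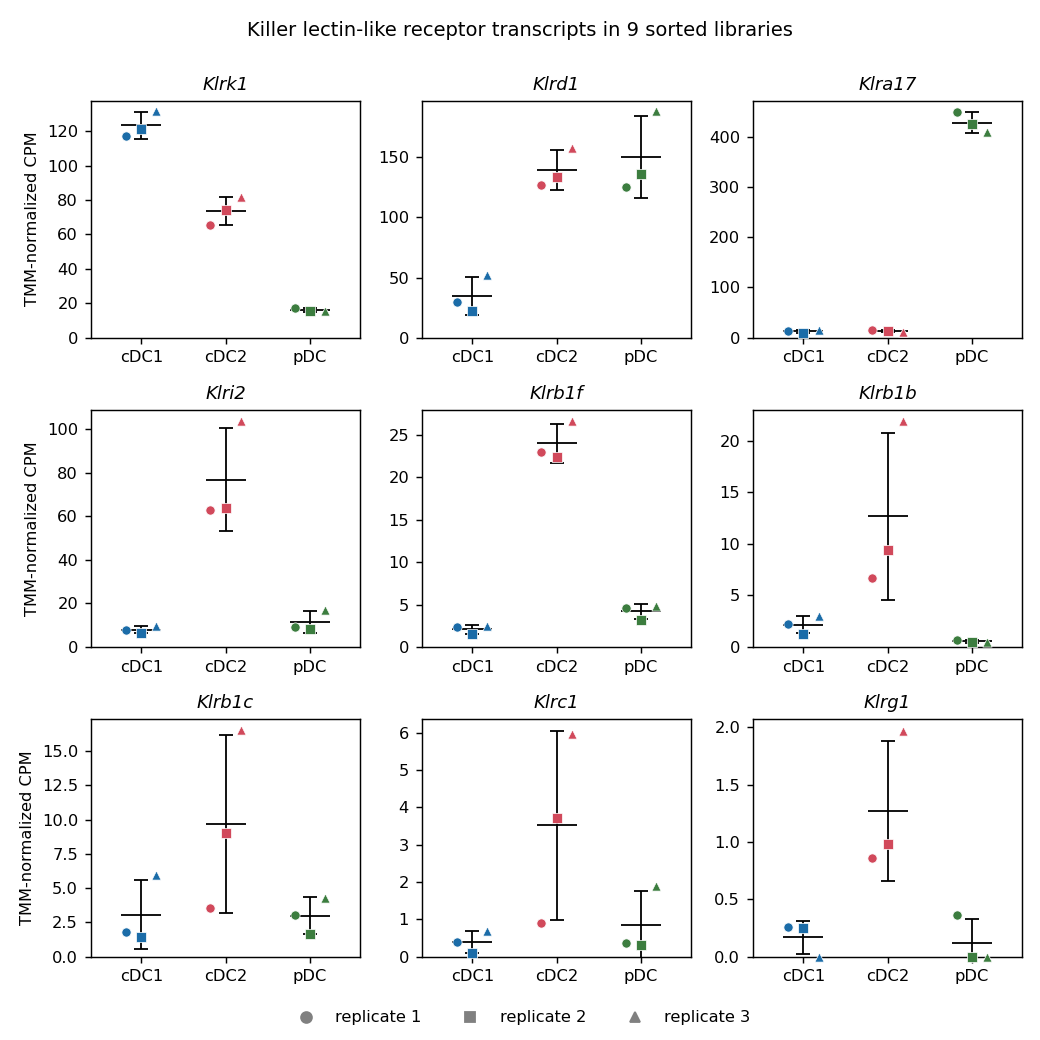
TMM-normalized CPM (vertical axes, each from 0) of the 9 receptor genes in cDC1, cDC2 and pDC, with 1 point per library, a horizontal line at the mean and a bar of 1 SD, which is cut where it would fall below 0. Klrk1 was highest in cDC1 (117 to 132 CPM), Klra17 in pDC (409 to 450 CPM), and Klri2, Klrb1f and Klrb1b in cDC2, whereas Klrd1 was high in both cDC2 and pDC.

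**Figure D2:**
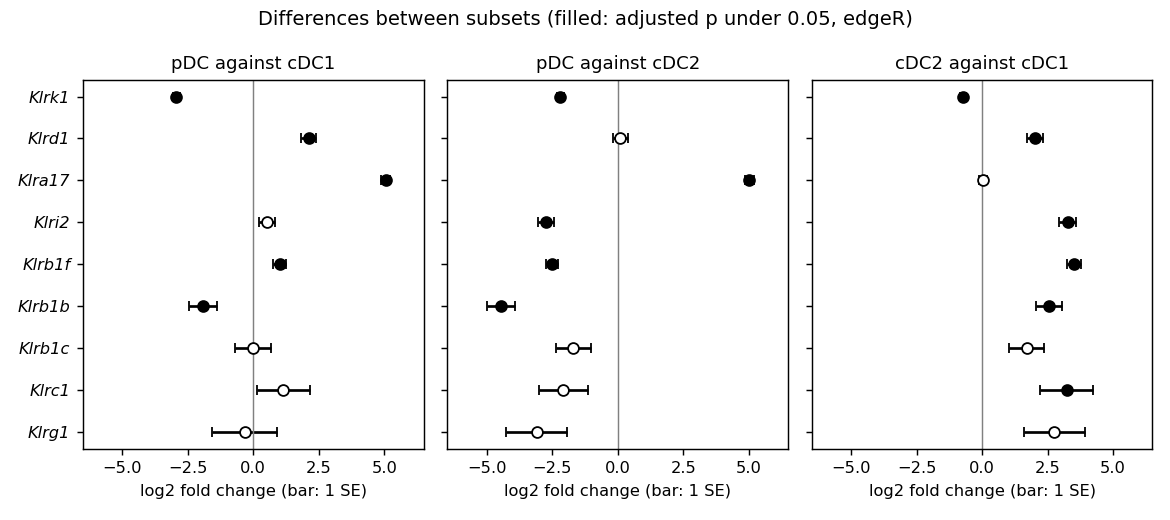
Log2 fold change of each receptor gene in the 3 comparisons (horizontal axes, with bars of 1 SE), filled where the edgeR adjusted p was under 0.05. Klra17 stood near 5 in both pDC comparisons and near 0 between the cDC, and the bars were widest for the scarce transcripts Klrc1 and Klrg1.

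Klrk1 encodes NKG2D, the activating receptor for the stress-induced RAE-1, H60 and MULT1 molecules. It stood at 117, 121 and 132 CPM in cDC1, at 65.2, 74.2 and 81.6 in cDC2 and at 17.4, 15.3 and 15.7 in pDC. The order cDC1, cDC2, pDC was the same at each of the 3 replicate numbers, and no library overlapped another subset. The level in pDC was lower than in cDC1 by a log2 fold change of -2.93 (SE 0.124, edgeR adjusted p = 1.1e-07) and lower than in cDC2 by -2.19 (SE 0.121, edgeR adjusted p = 5.1e-07). Between the cDC the difference was smaller, at -0.74 in cDC2 against cDC1 (SE 0.115, edgeR adjusted p = 0.0011). Klrk1 varied little among libraries of every subset, with a highest to lowest ratio of 1.13 in cDC1, 1.25 in cDC2 and 1.14 in pDC. There were 86.9 to 108 Klrk1 reads per Ncr1 read in cDC1, against 7.83 to 28.04 in cDC2 and 8.34 to 15.8 in pDC, and the Ncr1 levels of cDC1 lay within the range of those of pDC.

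CD94, the product of Klrd1, is the invariable partner of the NKG2 chains in receptors for the MHC class I-like molecule Qa-1. Klrd1 stood at 29.6, 22.1 and 52.4 CPM in cDC1, at 127, 134 and 158 in cDC2 and at 125, 136 and 189 in pDC. All libraries of cDC2 and pDC lay above all of cDC1, replicate 3 was the highest in every subset, and cDC2 and pDC overlapped. Against cDC1 the log2 fold change was 2.01 in cDC2 (SE 0.295, edgeR adjusted p = 0.00081) and 2.12 in pDC (SE 0.296, edgeR adjusted p = 0.00024). Between pDC and cDC2 it was 0.10 (SE 0.282, edgeR adjusted p = 0.798), a difference that these libraries did not resolve. In pDC there were 75.2 to 141 Klrd1 reads per Ncr1 read, above the 19.7 to 35.2 of cDC1 and the 15.2 to 54.6 of cDC2.

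Klrc1 encodes NKG2A, the inhibitory chain that pairs with CD94, and was scarce. It stood at 0.401, 0.0834 and 0.677 CPM in cDC1, at 0.893, 3.71 and 5.95 in cDC2 and at 0.363, 0.304 and 1.89 in pDC, from 2 to 112 reads. It passed the filter on low counts only through cDC2, so its differences from cDC2 are given as a description and support nothing. All cDC2 libraries lay above all cDC1 libraries, and replicate 1 of cDC2 lay below replicate 3 of pDC. In cDC2 the level exceeded that of cDC1 by 3.22 on the log2 scale (SE 1.01, edgeR adjusted p = 0.043). The call was lost without cDC1 replicate 1, 2 or 3, cDC2 replicate 2 or 3, or pDC replicate 1 (2.58 to 3.77, edgeR adjusted p = 0.0507 to 0.133). It was also lost with Ncr1 and Gzma as a covariate (0.98, edgeR adjusted p = 0.383) and in limma-voom (3.01, adjusted p = 0.104). Without cDC2 replicates 2 and 3 together, which leaves 1 cDC2 library and so no spread between cDC2 libraries, the difference was 1.24. For pDC against cDC2 it was -2.08 (edgeR adjusted p = 0.0998), and with the replicate block -2.26 (edgeR adjusted p = 0.0277). Klrc1 reads in cDC2 were 0.384 to 0.571 per Ncr1 read. The partners of CD94 were thus far below Klrd1 itself in counts. Klrc2, which encodes NKG2C, stood at no more than 0.474 CPM in cDC1, than 4.73 in cDC2 and than 1.00 in pDC, and Klrc3 did not pass the filter on low counts. Counted per kilobase of exon, Klrd1 had 109 ± 12.8 CPM in cDC2 (SD, n = 3) against 1.77 ± 1.28 for Klrc1, and in pDC the values were 117 ± 26.6 and 0.429 ± 0.452.

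The Klrb1 genes encode the NKR-P1 receptors, which recognise lectin-like proteins of the neighbouring Clec2 family. Klrb1f (NKR-P1F, a receptor for the product of Clec2i) stood at 2.40, 1.501 and 2.44 CPM in cDC1, at 22.95, 22.4 and 26.7 in cDC2 and at 4.57, 3.24 and 4.83 in pDC. The 3 subsets did not overlap, and the cDC2 libraries differed from each other by a factor of at most 1.19. Against cDC1, cDC2 had a log2 fold change of 3.51 (SE 0.256, edgeR adjusted p = 1.2e-05), and pDC against cDC2 had -2.51 (SE 0.241, edgeR adjusted p = 2.0e-05). Klrb1f was also higher in pDC than in cDC1, by 1.00 (SE 0.248, edgeR adjusted p = 0.0075). Without cDC2 replicates 2 and 3, which held the most Ncr1, the difference between the cDC was 3.44, with 1 cDC2 library left in that fit.

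Klrb1b encodes an inhibitory NKR-P1 receptor for the product of Clec2d. It stood at 2.26, 1.29 and 2.98 CPM in cDC1, at 6.66, 9.45 and 21.9 in cDC2 and at 0.696, 0.456 and 0.530 in pDC. The subsets did not overlap, but the cDC2 libraries spanned a factor of 3.29, with replicate 3 the highest. It differed on the log2 scale by 2.55 in cDC2 against cDC1 (SE 0.486, edgeR adjusted p = 0.0038), -4.45 in pDC against cDC2 (SE 0.547, edgeR adjusted p = 0.00011) and -1.91 in pDC against cDC1 (SE 0.533, edgeR adjusted p = 0.014). The first fell to 1.33 with Ncr1 and Gzma as a covariate (edgeR adjusted p = 0.028), and to 1.62 with cDC2 replicate 1 as the only cDC2 library. The last was lost in limma-voom (-1.75, adjusted p = 0.202). There were 1.45 to 2.86 Klrb1b reads per Ncr1 read in cDC2, 1.15 to 2.00 in cDC1 and 0.281 to 0.474 in pDC, where 9 to 23 reads were counted.

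Klrb1c encodes NK1.1, the activating NKR-P1 receptor by which NK cells are identified in this strain. It stood at 1.79, 1.42 and 5.96 CPM in cDC1, at 3.57, 8.997 and 16.5 in cDC2 and at 3.03, 1.62 and 4.30 in pDC. The subsets overlapped, and replicate 3 was the highest in each. No comparison was called. On the log2 scale the difference was 1.69 in cDC2 against cDC1 (SE 0.679, edgeR adjusted p = 0.105) and -1.70 in pDC against cDC2 (SE 0.675, edgeR adjusted p = 0.0658). Both were called with the replicate block, at 1.76 (edgeR adjusted p = 0.0124) and -1.56 (edgeR adjusted p = 0.014). With Ncr1 and Gzma as a covariate they were 0.03 and -0.31. Klrb1c kept nearly the same ratio to Ncr1 across cDC2, at 1.38 to 1.59 reads per Ncr1 read, while Ncr1 itself varied by a factor of 4.48. In pDC the ratio was 1.68 to 2.28, and in cDC1 it was 1.26 to 4.

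**Figure D3:**
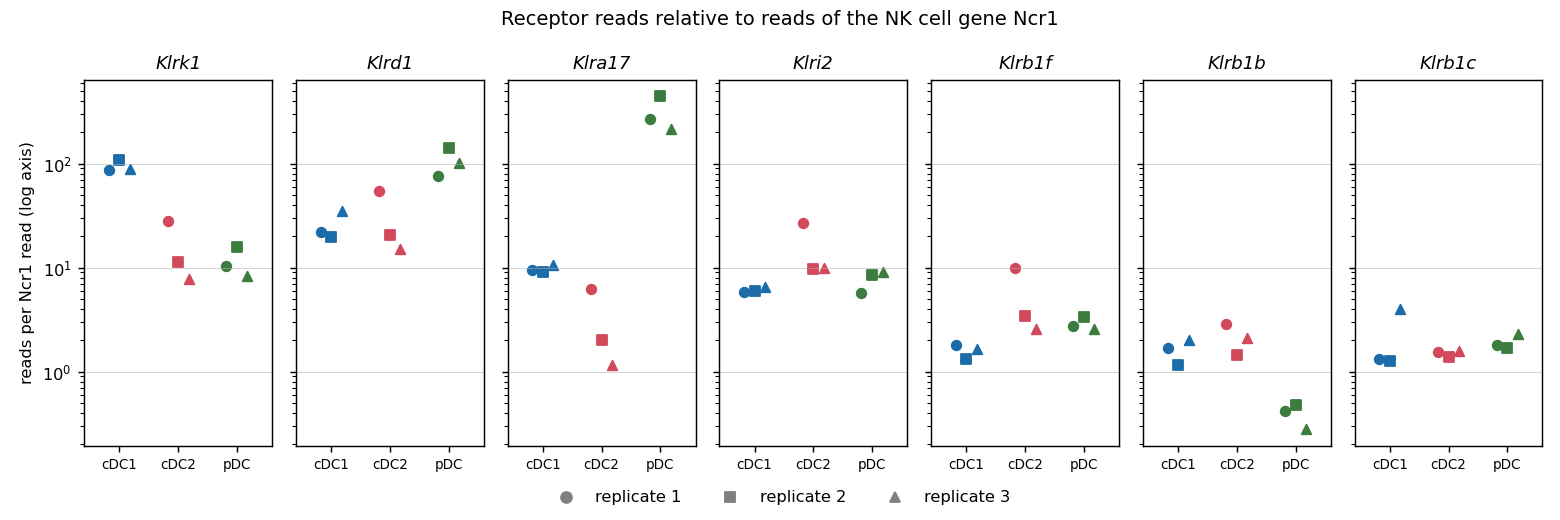
Reads of 7 receptor genes per read of Ncr1 (vertical log axis) in each library of cDC1, cDC2 and pDC. Klrb1c lay between 1.26 and 4 in all 9 libraries, whereas Klra17 reached 217 to 442 in pDC and Klrk1 reached 86.9 to 108 in cDC1.

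Klra17 encodes Ly49Q, an inhibitory receptor for the MHC class I molecule H2-K that signals through SHP-1 and SHP-2. It stood at 12.8, 10.3 and 15.8 CPM in cDC1, at 14.5, 13.2 and 11.96 in cDC2 and at 450, 426 and 409 in pDC. Every pDC library lay far above every cDC library, the cDC overlapped, and pDC replicates differed by a factor of at most 1.10. Its log2 fold change in pDC was 5.05 over cDC1 (SE 0.173, edgeR adjusted p = 4.2e-08) and 5.01 over cDC2 (SE 0.172, edgeR adjusted p = 7.3e-08). Within a replicate number, pDC had 25.9 to 41.3 times the level of cDC1 and 31.0 to 34.2 times that of cDC2. Between cDC2 and cDC1 the log2 fold change was 0.04 (SE 0.152, edgeR adjusted p = 0.901). Per kilobase of exon, Klra17 had 359 ± 17.5 CPM (SD, n = 3) in pDC, the highest of the 9 genes in any subset. Klra17 reads in pDC were 217 to 442 per Ncr1 read, against 9.15 to 10.6 in cDC1 and 1.15 to 6.23 in cDC2. Siglech, a pDC gene, stood at 11.5 to 33.9 CPM in cDC beside 4330 to 5110 in pDC. How much of the Klra17 level in cDC came from pDC reads in those libraries was not tested.

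The products of Klri1 and Klri2 pair with that of Klre1, Klri1 giving an inhibitory and Klri2 an activating receptor. Klri2 stood at 7.90, 6.67 and 9.62 CPM in cDC1, at 63.1, 63.6 and 104 in cDC2 and at 9.38, 8.11 and 17.2 in pDC. All cDC2 libraries lay above all others, while cDC1 and pDC overlapped, and replicate 3 was the highest in each subset. It was 3.26 higher on the log2 scale in cDC2 against cDC1 (SE 0.326, edgeR adjusted p = 7.8e-05) and changed by -2.74 in pDC against cDC2 (SE 0.317, edgeR adjusted p = 7.3e-05). In pDC against cDC1 it was 0.52 (SE 0.312, edgeR adjusted p = 0.200), and with the replicate block 0.46 (edgeR adjusted p = 0.0203). With Ncr1 and Gzma as a covariate the difference between the cDC was 2.54 (edgeR adjusted p = 3.0e-05), and with cDC2 replicate 1 as the only cDC2 library it was 2.97. By itself, cDC2 replicate 1 held 27.1 Klri2 reads per Ncr1 read.

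Klri1, next to Klri2, was also highest in cDC2 but was shared with cDC1. It stood at 71.9, 69.1 and 83.0 CPM in cDC1, at 138, 144 and 199 in cDC2 and at 2.00, 0.862 and 0.589 in pDC. In pDC it was nearly lost, with a log2 fold change of -5.90 against cDC1 (SE 0.360, edgeR adjusted p = 9.5e-07) and -7.00 against cDC2 (SE 0.373, edgeR adjusted p = 4.0e-07). The difference of 1.10 between cDC2 and cDC1 (SE 0.274, edgeR adjusted p = 0.0154) was lost without cDC1 replicate 1 or 2 or cDC2 replicate 3 (0.89 to 1.07, edgeR adjusted p = 0.0599 to 0.0645) and with the NK covariate (0.77, edgeR adjusted p = 0.0896). With cDC2 replicate 1 as the only cDC2 library it was 0.88. Per kilobase of exon, Klri1 had 89.1 ± 8.74 CPM (SD, n = 3) in cDC1 and 191 ± 40.5 in cDC2, and Klri2 had 2.06 ± 0.378 and 19.6 ± 5.98. Klre1, the partner of both, stood at 2.26, 1.501 and 3.52 CPM in cDC1, at 3.06, 5.60 and 11 in cDC2 and at 1.88, 1.12 and 1.24 in pDC. It was lower in pDC than in cDC2 (-2.19, SE 0.523, edgeR adjusted p = 0.0066), a call that was lost with the NK covariate (-1.18, edgeR adjusted p = 0.0552). With cDC2 replicate 1 as the only cDC2 library the difference was -1.12. In cDC2 against cDC1 it was not called in the fit of all 9 libraries but was called in cDC2 against cDC1 with the replicate block (1.40, edgeR adjusted p = 0.0402), by DESeq2 (adjusted p = 0.0284), by library size only and without cDC2 replicate 1 (edgeR adjusted p = 0.0492 and 0.034). There were 0.860 to 1.31 Klre1 reads per Ncr1 read in cDC2.

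Klrg1 encodes an inhibitory receptor for E-cadherin and N-cadherin. It was at the limit of detection, with 7, 6 and 0 reads in cDC1, 27, 28 and 37 in cDC2 and 12, 0 and 0 in pDC. All cDC2 libraries lay above the others, and the gene passed the filter on low counts only through cDC2, so a difference from cDC2 is again a description. No comparison was called (edgeR adjusted p = 0.0551 in pDC against cDC2 and 0.119 in cDC2 against cDC1), but pDC against cDC2 was called with the replicate block (-3.59, edgeR adjusted p = 0.0462). Levels in cDC1 and pDC were too close to the floor of 3 counts for an order between them.

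**Figure D4:**
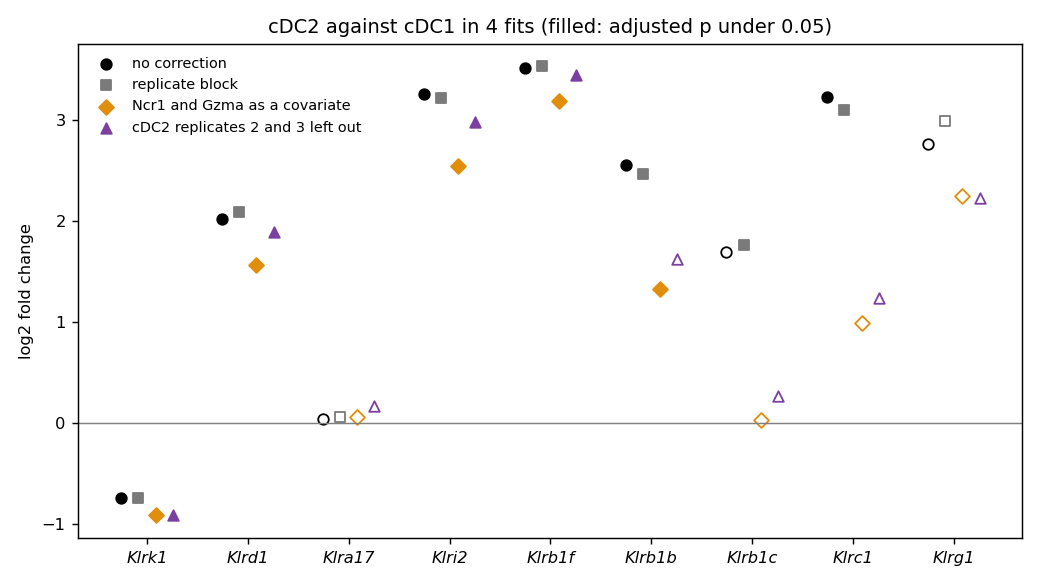
Log2 fold change of cDC2 against cDC1 (vertical axis) for the 9 receptor genes in 4 fits, filled where the adjusted p was under 0.05. For Klrk1, Klrd1, Klri2, Klrb1f and Klrb1b it stayed called with Ncr1 and Gzma as a covariate. The fit without cDC2 replicates 2 and 3 leaves 1 cDC2 library, so the filling there rests on no spread between cDC2 libraries. With the covariate and in that fit, Klri2 went from 3.26 to 2.54 and 2.97 and Klrd1 from 2.01 to 1.56 and 1.88, whereas Klrb1c went from 1.69 to 0.03 and 0.26 and Klrc1 from 3.22 to 0.98 and 1.24.

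Across the 9 libraries the 9 genes fell into several patterns, given as Pearson correlations of log2(CPM + 1), which rest on the same libraries and largely on 3 subset means. Klri2 and Klrb1f correlated at 0.98, and Klrb1c and Klrc1 at 0.93, whereas Klrk1 and Klra17 correlated at -0.96. Among all genes tested, those with a profile most like Klra17 included Slc39a14 and Cds1 (both 1.00 when rounded). That of Klrk1 was most like Prr5l, Pdlim5 and Rbbp7 (all at least 0.996), and that of Klrd1 like Ppdpf, Rbm38 and Fcer1g (0.99). Fcer1g, which encodes a signalling chain of several activating receptors, thus showed the low level in cDC1 and the like levels in cDC2 and pDC seen for Klrd1. For Klri2 the closest were Rtp4, Ms4a4c and Il1rn and for Klrb1f Ifit3, Emb and Tmem164 (all at least 0.99), among which Rtp4 and Ifit3 are known as interferon-stimulated genes.

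Over all genes tested, 24.3% were higher and 24.4% lower in pDC than in cDC1, 22.5% and 23.3% in pDC than in cDC2, and 12.7% and 11.7% in cDC2 than in cDC1, and the counts of the lists that follow are read beside these shares. The shares are from the fit of all 9 libraries without a block. None is given for the other fits, so changes of a list count between fits are not read as particular to the list. Of 18 other Klr genes listed, 17 were in the table and 13 were tested, and the tested pseudogenes Klra13-ps and Klra14-ps are not on the list. In pDC, 4 were lower and none higher than in cDC1, and 4 were lower and none higher than in cDC2, which became 7 lower without pDC replicate 3. Between cDC2 and cDC1, 2 were higher and 2 lower in cDC2, which became 8 in all with the replicate block, by DESeq2 or in a fit of 6 libraries, 1 with the NK covariate, and 1 or 2 without cDC1 replicate 1 or 2 or cDC2 replicate 3. Klrg2 was the most restricted of them by reads. It passed the filter on low counts only through cDC1, so its calls against cDC1, counted above, follow in part from the filter. It had 44, 60 and 51 reads in cDC1 and at most 3 in any other library, at least 21.0-fold more than in cDC2 and at least 18-fold more than in pDC by CPM against a floor of 3 counts per library. Klra5, an Ly49 gene, stood at 5.65, 8.09 and 3.52 CPM in cDC1, at 1.88, 1.58 and 1.75 in cDC2 and at 0.212, 0.203 and 0.412 in pDC. Its subsets did not overlap, and it was lower in cDC2 than in cDC1 (-1.73, SE 0.401, edgeR adjusted p = 0.0109), a call that was lost without cDC1 replicate 2 (-1.40, edgeR adjusted p = 0.0828) and with the NK covariate (-1.59, edgeR adjusted p = 0.0763). With cDC2 replicate 1 as the only cDC2 library the difference was -1.62. Klra3, which encodes the inhibitory Ly49C, stood at 1.42 to 3.13 CPM in cDC1 and 4.85 to 7.55 in cDC2, with 7, 0 and 0 reads in pDC, and was lower there than in both cDC (edgeR adjusted p = 0.00086 and 0.00021). Klra4 stood at 0.948 to 1.13 CPM in cDC1, at 2.39 to 9.99 in cDC2 and at 0.710 to 3.71 in pDC, and its difference of 2.35 between the cDC (SE 0.675, edgeR adjusted p = 0.0304) was lost with the NK covariate (0.58, edgeR adjusted p = 0.467) in limma-voom (1.90, adjusted p = 0.10) and without any cDC1 replicate or cDC2 replicate 3 (1.52 to 2.40, edgeR adjusted p = 0.0867 to 0.119). Klra1, Klra2, Klra7, Klra8, Klra9, Klrb1a and Klrc2 were not called in any comparison, but with the replicate block Klra2 and Klrc2 were called in both comparisons with cDC2, and Klra8 in cDC2 against cDC1. Among these, Klra1, Klrb1a and Klrc2 had enough counts for testing in every library of cDC2 and of no other subset, so the calls of Klrc2 follow in part from the filter.

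Receptors of this family signal through a small set of adaptors, kinases and phosphatases, and of the 14 listed all were tested. In pDC 5 were higher and 4 lower than in cDC1, and 4 were higher and 3 lower than in cDC2, which became 2 and 2 with the NK covariate. In cDC2 7 were higher and 2 lower than in cDC1. Tyrobp, which encodes DAP12, stood at 390, 328 and 408 CPM in cDC1, at 846, 729 and 772 in cDC2 and at 2317, 2100 and 2430 in pDC. The subsets were well apart, and pDC exceeded cDC1 by 2.61 on the log2 scale (SE 0.115, edgeR adjusted p = 1.3e-07) and cDC2 by 1.54 (SE 0.111, edgeR adjusted p = 2.7e-06). Hcst, which encodes DAP10, the main adaptor of NKG2D, was far lower and did not follow Klrk1. It stood at 7.76, 6.30 and 5.28 CPM in cDC1, at 10.6, 9.28 and 9.62 in cDC2 and at 13.7, 13.7 and 10.3 in pDC. Hcst was lowest in cDC1, where Klrk1 was highest, and was higher in pDC than in cDC1 by 0.96 (SE 0.207, edgeR adjusted p = 0.0035). Between cDC2 and cDC1 it differed by 0.60 (edgeR adjusted p = 0.0611), and by 0.62 with the replicate block (edgeR adjusted p = 0.0241). Syk, the kinase recruited by DAP12, and Ptpn6, which encodes SHP-1, were both lowest in cDC1. Compared with cDC1 they rose on the log2 scale by 1.31 in cDC2 and 1.92 in pDC for Syk, and 1.52 and 1.90 for Ptpn6 (edgeR adjusted p of 0.0003 at most). Grb2 and Cd247, which encode a linker and the CD3 zeta chain, were lower in pDC than in cDC2 by log2 fold changes of -0.71 and -2.81 (edgeR adjusted p = 8.1e-05 and 0.0208), the latter at no more than 3.56 CPM in any library. The Cd247 call was lost with the NK covariate (-2.18, edgeR adjusted p = 0.109) and without cDC2 replicate 3 or pDC replicate 2 (edgeR adjusted p = 0.0654 and 0.0511). With cDC2 replicate 1 as the only cDC2 library the Cd247 difference was -2.21. Lcp2, which encodes the adaptor SLP-76, was lowest in pDC at 42.3 to 58.5 CPM, against 159 to 178 in cDC1 and 359 to 388 in cDC2.

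**Figure D5:**
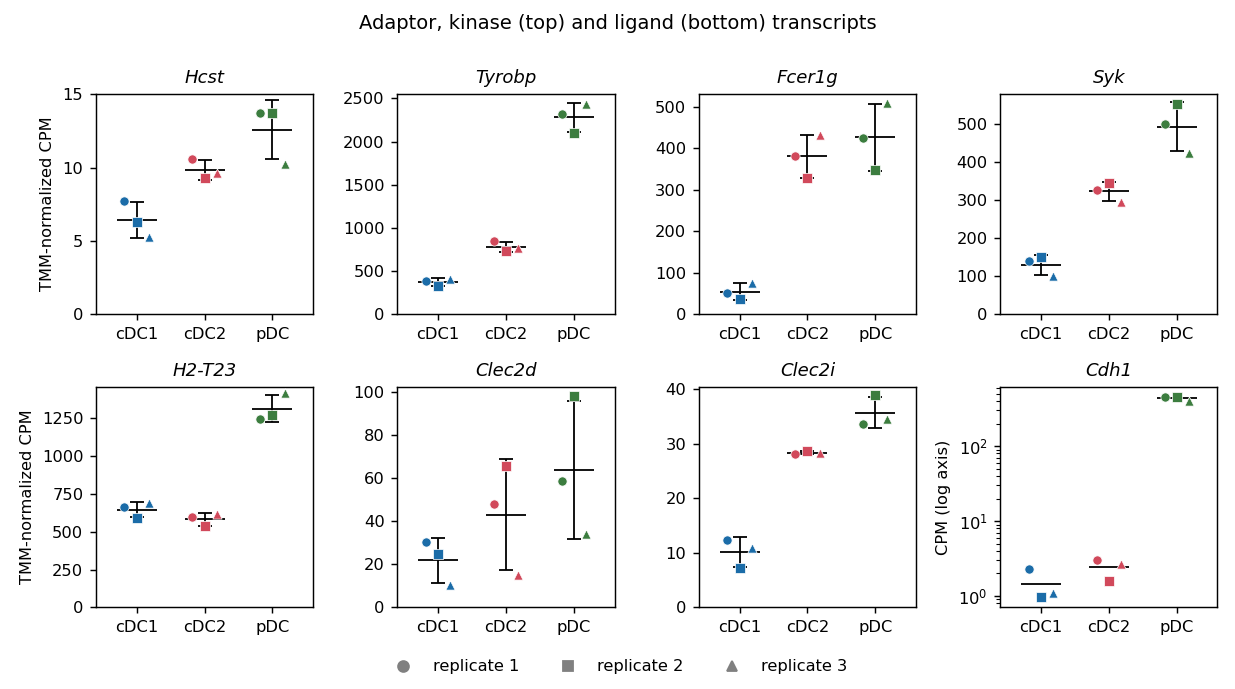
TMM-normalized CPM of 4 signalling genes (top) and 4 ligand genes (bottom) per library of cDC1, cDC2 and pDC, with the mean as a line and, except for Cdh1 on its log axis, a bar of 1 SD. Tyrobp, H2-T23 and Cdh1 were highest in pDC at every replicate number, and Hcst and Fcer1g were lowest in cDC1.

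Of 19 ligand genes listed, 16 were in the table and 10 were tested, and their transcripts rather than their proteins were measured. In pDC 7 were higher and 1 lower than in cDC1, which became 5 and 0 without cDC1 replicate 1 or 2 or cDC2 replicate 1. Against cDC2, 4 were higher and 2 lower in pDC. Between the cDC, 1 was higher in cDC2, and 4 with the replicate block. Cdh1, which encodes the KLRG1 ligand E-cadherin, stood at 455, 458 and 406 CPM in pDC and at no more than 3.00 in any cDC library. On the log2 scale pDC exceeded cDC1 by 8.2 (SE 0.357, edgeR adjusted p = 1.3e-07) and cDC2 by 7.5 (SE 0.341, edgeR adjusted p = 1.8e-07), so that the ligand was strongest where Klrg1 had 12, 0 and 0 reads. H2-T23, which encodes the CD94/NKG2 ligand Qa-1, stood at 663, 586 and 685 CPM in cDC1, at 593, 534 and 619 in cDC2 and at 1244, 1271 and 1411 in pDC. It was higher in pDC than in cDC1 by 1.02 (SE 0.10, edgeR adjusted p = 2.0e-05) and than in cDC2 by 1.17 (SE 0.101, edgeR adjusted p = 9.5e-06). H2-K1, the ligand of Ly49Q, was higher in pDC by 0.93 than in cDC1 (edgeR adjusted p = 3.9e-05) and by 0.72 than in cDC2 (edgeR adjusted p = 0.00024).

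The Clec2 ligands of the NKR-P1 receptors were also transcribed in these cells. Clec2i stood at 12.4, 7.17 and 10.9 CPM in cDC1, at 28.1, 28.7 and 28.3 in cDC2 and at 33.6, 38.9 and 34.6 in pDC, and was higher in cDC2 (1.48) and in pDC (1.81) than in cDC1 (edgeR adjusted p = 0.00036 and 3.5e-05). Clec2d varied widely between replicates, at 30.2, 25.0 and 10.3 CPM in cDC1, at 48.1, 65.9 and 15.1 in cDC2 and at 59.0, 98.2 and 34.4 in pDC. Replicate 3 was the lowest in every subset. Its difference of 1.54 between pDC and cDC1 (SE 0.571, edgeR adjusted p = 0.0485) was lost without any cDC1 replicate, cDC2 replicate 1 or 2, or pDC replicate 1 or 2 (1.06 to 1.84, edgeR adjusted p = 0.0511 to 0.178). With the replicate block Clec2d was higher in pDC than in cDC2 by 0.67 (edgeR adjusted p = 0.0204) and in cDC2 than in cDC1 by 0.89 (edgeR adjusted p = 0.0103). Transcripts of the NKG2D ligands were scarce. Ulbp1, which encodes MULT1, stood at 6.13 to 8.40 CPM in cDC2, at 4.63 to 6.98 in cDC1 and at 2.33 to 5.13 in pDC, and Raet1d, Raet1e, H60b and H60c did not pass the filter.

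Lectin genes of the same chromosomal region were expressed in other patterns. Of 14 listed, 9 were tested, and 4 were higher and 3 lower in pDC than in cDC1, 3 higher and 3 lower than in cDC2, and 2 higher and 2 lower in cDC2 than in cDC1, which became 7 in all without replicate 3 of each subset. Clec9a, a receptor for dead cells, stood at 597 to 642 CPM in cDC1, at 242 to 264 in pDC and at 40.4 to 57.8 in cDC2. Clec12a was highest in pDC, at 484 to 504 CPM, and Clec7a (Dectin-1) was highest in cDC2, at 139 to 167 CPM. Cd69, an activation marker, stood at 17.1, 25.3 and 114 CPM in pDC and at no more than 5.85 in any cDC library, and was higher in pDC than in both cDC (edgeR adjusted p = 0.00092 and 0.0027), the latter not called without cDC2 replicates 2 and 3 (edgeR adjusted p = 0.0638). Clec1b stood at no more than 5.26 CPM in any library, and its call in pDC against cDC2 (-2.46, edgeR adjusted p = 0.0474) was lost without any cDC1 or cDC2 replicate or pDC replicate 2 (edgeR adjusted p = 0.058 to 0.13).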

How the data were processed

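RNA of 9 sorted libraries was sequenced with a stranded kit for polyadenylated RNA and single reads of 75 bases. The authors deposited raw read counts per gene, which were not normalized. The submitters' processing notes name STAR, SAMtools, MultiQC, featureCounts and mm10. Versions, annotation and strand setting are not given in the sources used here. Cells of light density were depleted with antibodies that did not include one against NK cells, then stained, also for CD49b, and sorted. Libraries were grouped by their labels.

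The count table was fitted with edgeR 4.0.16 under R 4.3.3 (filterByExpr with a minimum count of 10, TMM factors, 1 quasi-likelihood fit over 9 libraries with the subset as the only term, Benjamini-Hochberg adjustment over 13819 genes, threshold 0.05). The SE of a log2 fold change was computed as its size divided by the square root of the F statistic. In pairs of same-numbered libraries, which share a date code, deviations from the subset means correlated at 0.403 on average (0.266 to 0.543 over 9 pairs), so the number was also used as a block. Replicates differed by more than sampling noise (chi-square per degree of freedom 9.93 to 64.4). Nothing says that the pools share no animals, and p-values measure the spread between these libraries. The members and lists were chosen with earlier results of these data known.

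The genes named were the 9 receptors, the listed other Klr genes that were tested, from each further list up to 4 genes per comparison with the largest change, a call and a mean of at least 50 counts in the higher subset, with Hcst, Tyrobp, H2-T23 and Clec2d always, the 3 genes most like each receptor with a mean of at least 10 CPM, and the NK markers. One gene that the rule names is not reported here. Siglech, Cd8a, Itgam and Bst2 are subset markers on a listed set, and Klrc3, Klra13-ps, Klra14-ps, Raet1d, Raet1e, H60b and H60c, named with no value, are not covered by it and were picked with their values known. Alternatives were the block, DESeq2 1.42.0, limma-voom (limma 3.58.1), library size only, upper quartile and RLE factors, no filter, 6 libraries, stricter thresholds, each library left out, and the mean log2(CPM + 1) of Ncr1 and Gzma as a covariate. After seeing the data, fits without replicate 3 of each subset and without cDC2 replicates 2 and 3 were added. The latter leaves 1 cDC2 library. Lists of T cell, B cell, and granulocyte and monocyte markers were read in the same fit: of 8, 4 and 7 tested, 4, 3 and 2 were higher and 0, 1 and 0 lower in pDC than in cDC1 (24.3% and 24.4% of all genes), and 3, 2 and 2 higher and 0, 1 and 0 lower in cDC2 (12.7% and 11.7%). In pDC against cDC2 3, 0 and 2 were higher and 1, 2 and 1 lower (22.5% and 23.3%). On data simulated from these libraries, the test recovered 79 of 101 genes changed 4 times and 32 of 96 changed 2 times in pDC against cDC1, of 13564 genes run, with 4.31% of its calls false. The simulation changed 197 genes in all and gave same-numbered libraries no shared deviations. In the data 48.6% of genes were called in this comparison, so these rates need not hold for it. Figures used Python 3.11.15 and matplotlib 3.10.9.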

Additional observations from a re-analysis of the deposited data

How the results depend on the processing

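Of the 16 calls made for the 9 receptors, none changed direction in any of the 20 alternatives, and 13 stayed past the threshold in all of them. The exceptions were Klrb1b in cDC2 against cDC1 and in pDC against cDC1, and Klrc1 in cDC2 against cDC1. With the replicate block 8 of the 9 were called in pDC against cDC2 in place of 5, with no share of all genes given for that fit. The block changed no call of the receptors other than those given in the text. Leaving out 1 library gave 5 calls in pDC against cDC1, 5 to 6 in pDC against cDC2 and 5 to 6 in cDC2 against cDC1. Without scaling factors the median log2 fold change of all genes moved from 0.02 to 0.11 in pDC against cDC1 and from 0.03 to 0.14 in cDC2 against cDC1. Of 53 calls for the other genes named, none changed direction, and 41 stayed past the threshold in every alternative. Low counts limit Klrc1 and Klrg1, and shared sequence limits Klrc1.

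Signs turned only for differences that had not been called, and the cause was not tested. With the replicate block Klrb1c and Klra7 became 0.20 and 0.049 in pDC against cDC1. In limma-voom these 2 became 0.35 and 0.34, and Klrg2 became 0.32 in pDC against cDC2. Klrb1c in pDC against cDC1 was also 0.092 by library size only and 0.002 with no filter. Without replicate 3 of each subset, a fit added after seeing the data, pDC against cDC1 gave 0.53 for Klrb1c, 0.71 for Klra7, -0.20 for Klra1 and -0.029 for Klrc2, and pDC against cDC2 gave -0.001 for Klrd1. With the NK covariate, pDC against cDC2 gave -0.52 for Clec2d, 0.60 for Klra1, 0.83 for Klra8 and 0.72 for Klra9. In cDC2 against cDC1 it gave -0.087 for Cd247, -0.24 for Ulbp1, -0.38 for Cd69, -0.12 for Klra1, -0.15 for Klra7 and -0.35 for Klra9. Without cDC2 replicates 2 and 3, also added then, with the lone cDC2 library assumed to vary like the others, Klra1, Klra8, Klra9 and Klrc2 became 0.82, 1.15, 0.52 and 0.12 in pDC against cDC2, and Cd247 and Klra7 became -0.055 and -0.22 in cDC2 against cDC1.

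Leaving out 1 library gave, in pDC against cDC1, -0.35 to 0.85 for Klrb1c, -0.12 to 1.68 for Klrc1, -5.08 to 0.13 for Klrg1, -0.48 to 1.34 for Klra2, -0.70 to 0.85 for Klra7, -0.029 to 1.33 for Klra9, -0.11 to 1.59 for Klrb1a and -0.19 to 1.00 for Klrc2. In pDC against cDC2 it gave -0.094 to 0.22 for Klrd1, -0.85 to 2.63 for Klrg2, -2.18 to 0.26 for Klra1, -2.07 to 0.076 for Klra8 and -1.01 to 0.28 for Klra9. In cDC2 against cDC1 it gave -0.11 to 0.17 for Klra17 and -0.031 to 0.82 for Cd247.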
